A study of Mus musculus with 16 samples.

Results

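The 33 genes described here encode enzymes and transporters by which hepatocytes handle amino acids, sugars, bile acids, lipids and foreign compounds. They were taken by symbol from 19934 genes with a probe set of their own, each represented by the probe set with the highest mean signal, and are described across 8 groups of mouse fetal liver samples. RNA came from single cell suspensions of fetal livers and was hybridised to 16 whole-transcript arrays. The labels do not say whether livers were pooled. At each of 2 stages, E12.5 and E14.5 (days of gestation), the groups were wild type (WT), an ERG transgene (ERG Tg, here ERG), a knock-in of GATA1s, the short form of the X-linked blood transcription factor GATA1 (WT/GATA1s, here GATA1s), and both alleles together (ERG/GATA1s). Each group held 1 sample labelled female and 1 labelled male. ERG is an ETS family transcription factor of stem cells and megakaryocytes. The labels name neither the mouse strain nor the promoter of the transgene. The study set out to find genes whose expression depends on ERG, on full-length GATA1 or on GATA1s. GATA1s carriers are the GATA1s and ERG/GATA1s samples, and non-carriers are the WT and ERG samples.

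The fetal liver is a blood-forming organ in which hepatoblasts, the common precursors of hepatocytes and bile duct cells, lie among dividing blood cells. As gestation proceeds, hepatoblasts turn on the adult metabolic programme in steps under factors such as HNF4A, C/EBP alpha and FOXA proteins. Plasma protein genes come on early, enzymes of amino acid breakdown and detoxification later, and several bile acid, gluconeogenic and cytochrome P450 genes around or after birth. GATA1 acts in red cells, megakaryocytes, mast cells and eosinophils rather than in hepatocytes.

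Promoter sequences were matched by symbol for 27 of the 33 genes in a RefSeq table of GRCm38.p6, and the 250 bases before each start were searched on both strands. Mat1a, Cyp7a1, Baat, Slc27a5, Gys2 and Rgn were not matched. The HNF4 motif CAAAGTCCA was found in 1 of the 27 genes and in 0.384% of 32851 promoters. The C/EBP motif TTGCGCAA was found in 0 of 27 and in 0.164% of promoters. A GATA motif, AGATAA, was found in 6 of 27 genes and 9.99% of promoters, and a TATA box, TATAAA, in 7 of 27 and 12.4%. A gene was counted if any of its promoters matched, while the percentages are of single promoters. The shares are thus not strictly comparable. The gene holding the HNF4 motif was Cyp8b1, which did not pass the test between the stages. It is printed with the raised genes of the largest change that held a TATA box (Fabp1) and a GATA motif (Gsta3, read on the other strand), which were chosen after the motif counts were seen. Capitals mark the motif, and each run ends at the base before the start.
Cyp8b1, chr9:121916306-121916555, minus strand, HNF4 motif 67 to 59 bases before the start: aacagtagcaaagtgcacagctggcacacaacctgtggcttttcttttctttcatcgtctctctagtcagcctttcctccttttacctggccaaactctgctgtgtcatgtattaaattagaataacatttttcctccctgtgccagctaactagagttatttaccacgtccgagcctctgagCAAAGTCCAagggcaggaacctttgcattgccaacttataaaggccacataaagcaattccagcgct
Fabp1, chr6:71199629-71199878, plus strand, TATA box 30 to 25 bases before the start: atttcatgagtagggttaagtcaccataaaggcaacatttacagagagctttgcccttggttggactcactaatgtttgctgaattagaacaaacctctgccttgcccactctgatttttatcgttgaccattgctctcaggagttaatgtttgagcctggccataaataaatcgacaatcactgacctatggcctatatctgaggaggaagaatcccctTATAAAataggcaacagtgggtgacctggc
Gsta3, chr1:21240335-21240584, plus strand, GATA motif 95 to 90 bases before the start: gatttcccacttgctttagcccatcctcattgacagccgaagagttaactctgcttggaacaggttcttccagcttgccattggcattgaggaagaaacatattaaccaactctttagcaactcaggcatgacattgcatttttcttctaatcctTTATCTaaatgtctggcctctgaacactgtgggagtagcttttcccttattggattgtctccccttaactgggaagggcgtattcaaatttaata
A match is a string of letters and says nothing of binding in these cells.

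The deposited values were log2 signals, with array medians between 4.79 and 4.94 and a median residual SD of 0.16. The number of arrays, 2 per group, limits the precision, and nothing in the labels says whether samples of a group came from separate litters. Markers of liver parenchyma, such as Alb and Afp, were present on all arrays. Sex markers opposed the label on 3 arrays, the E12.5 GATA1s male, the E12.5 ERG/GATA1s male and the E14.5 ERG/GATA1s female, and results that rest on them are given with and without them. On 2 more, kept throughout, markers of both sexes were high. The E12.5 WT male read 9.35 for Xist and 4.95 for the Y-linked mean, and the E14.5 ERG male 10.03 and 5.27. The E14.5 WT male read 3.94 and 6.18. The E12.5 ERG/GATA1s male also had the lowest SD over probe sets, 2.03 against 2.13 to 2.25 elsewhere. Of the 33 genes, 27 passed a filter on dim signal (2 or more arrays above 3.74, which is the 30th percentile of the value table) and were tested among 16258 units (genes, or probe sets shared by several genes). The 6 that did not pass were Tat, Tdo2, Cyp2e1, Cyp7a1, Slco1b2 and Hao1. Rgn, Abcb11 and Fbp1 had no E12.5 array above the limit and passed through E14.5 arrays alone. Slc10a1 and Slc27a5, with 1 E12.5 array above it, also needed their E14.5 arrays to pass. The filter thus favoured a rise with stage in these genes, whose calls over the 4 genotypes were kept without it. The nearest genes on either side of the limit were Fbp1, above it on 4 arrays, and Tat and Cyp7a1, above it on 1 array each.

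Most of these genes were higher at E14.5 than at E12.5, by up to 13.8-fold. Over the 4 genotypes, 8 arrays against 8, 22 of the 33 genes rose and 1 fell (Pck1). Of all 16258 units, 29% rose and 27.2% fell. The median change of the 33 genes, taken without the filter, was 0.93 on the log2 scale, against -0.06 for all genes on the array. In 15 of the 33 genes all 8 E14.5 arrays lay above all 8 E12.5 arrays, which held for 8.32% of units. The 5 largest rises were those of Aadac, Fabp1, Rgn, Gsta3 and Mgst1, each over 3 on the log2 scale. In a cell suspension, fewer hepatocytes and less RNA per hepatocyte cannot be told apart. Markers of other cells moved with stage too: 6 of 6 macrophage and 5 of 6 endothelial genes rose, 0 of 6 erythroid genes passed, and 16 of 18 liver parenchyma genes rose, while 4 of 6 granulocyte (1 rose) and 3 of 4 megakaryocyte genes fell. Their part in the result was not tested. Without the 3 arrays of opposed sex markers 20 genes rose, and without any single array 21 or 22. Adjusted p-values are limma's, with Benjamini-Hochberg adjustment over all units.

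**Figure D1:**
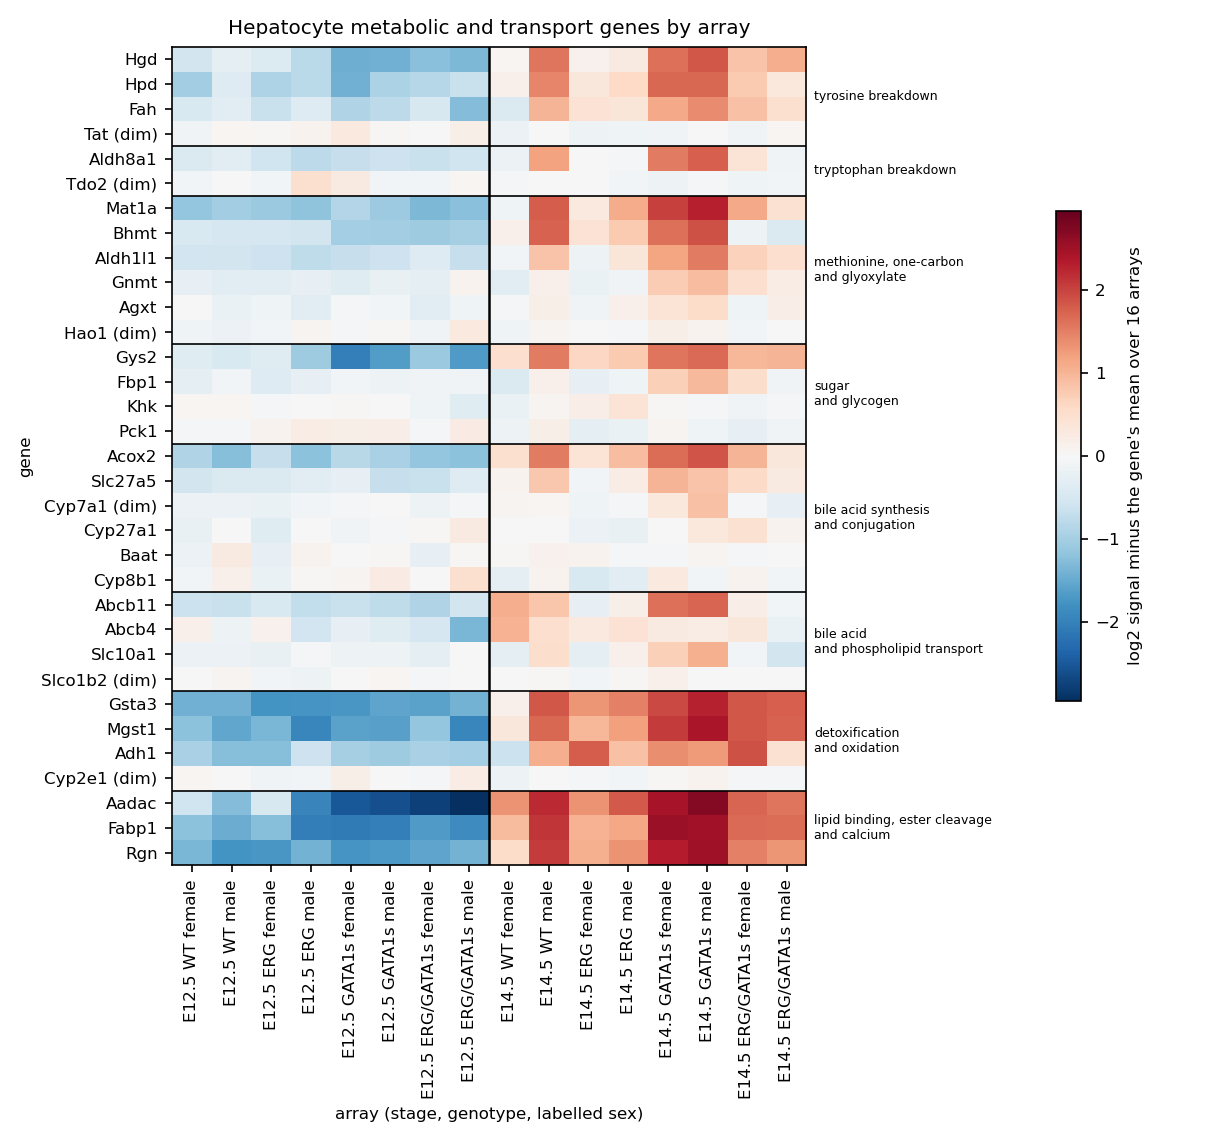
Log2 signal of each of the 33 genes (rows, by role) on each of 16 arrays (columns), as the difference from the gene's own mean over the arrays; the black vertical line parts the stages. For the 22 genes that passed as higher, E14.5 arrays are higher on average, though the lowest values of Slc10a1 (3.22) and Fbp1 (3.27) are at E14.5. The 6 genes marked dim stay near their mean, apart from Cyp7a1 on the E14.5 GATA1s male (3.90).

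The lipid, ester and calcium genes changed most. Aadac, a microsomal arylacetamide deacetylase that cleaves esters and lipids, ranged from 4.02 through a median of 4.75 to 6.51 at E12.5 and from 8.31 through 8.75 to 9.69 at E14.5. The lowest E14.5 array, the WT female, still lay above the highest E12.5 array, the ERG female. Aadac rose by 3.79 ± 0.19 (SE), 13.8-fold (adjusted p = 9.01e-09), in 8 of 8 pairs of arrays matched by genotype and labelled sex. Fabp1, the fatty acid binding protein of liver cytosol, ranged from 3.98 through 4.30 to 4.86 at E12.5 and from 6.99 through 7.73 to 8.61 at E14.5. Its stages did not overlap either, and the rise was 3.40 ± 0.15, 10.6-fold (adjusted p = 4.77e-09). Rgn, the calcium-binding protein regucalcin, was at or below 3.72 on every E12.5 array, under the dim limit, and between 5.63 and 7.59 at E14.5. Its measured means were 3.50 and 6.66, a rise of at least 7.58-fold (adjusted p = 7.59e-09).

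The detoxification genes came next, with 3 of 4 raised. Gsta3, an alpha class glutathione transferase, lay between 4.48 and 4.85 at E12.5 (median 4.67) and between 6.40 and 8.54 at E14.5 (median 8.06), a rise of 3.16 ± 0.15, 8.94-fold (adjusted p = 7.59e-09). Mgst1, the microsomal glutathione transferase, moved from 4.36 to 5.15 (median 4.75) up to 6.63 to 8.73 (median 8.03), a rise of 3.08 ± 0.18, 8.46-fold (adjusted p = 2.76e-08). In both genes the stages were apart on every array, and the lowest E14.5 array was the WT female. Adh1, the class I alcohol dehydrogenase, rose by 2.02 ± 0.25, 4.04-fold (adjusted p = 1.63e-05). Its E12.5 values, 4.28 to 4.93, overlapped with the E14.5 range of 4.90 to 7.43 through the WT female alone. Cyp2e1, the ethanol-inducible cytochrome P450, was below the dim limit on all 16 arrays, with a highest value of 3.60.

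Tyrosine breakdown runs from the aminotransferase Tat through Hpd and Hgd to Fah, and the 3 later enzymes rose. Hgd, homogentisate dioxygenase, ranged from 5.44 through 5.87 to 6.61 at E12.5 and from 6.95 through 7.84 to 8.73 at E14.5, a rise of 1.86 ± 0.15, 3.64-fold (adjusted p = 4.48e-07). Hpd, 4-hydroxyphenylpyruvate dioxygenase, ranged from 4.41 through 4.96 to 5.46 and then from 5.98 through 6.52 to 7.54, a rise of 1.75 ± 0.14, 3.36-fold (adjusted p = 4.20e-07). Neither gene's stages overlapped. Fah, fumarylacetoacetate hydrolase, the last step, was between 6.16 and 7.12 at E12.5 and between 7.02 and 8.83 at E14.5, with an overlap in which the WT and ERG males of E12.5 lay above the WT female of E14.5. It rose by 1.31 ± 0.17, 2.47-fold (adjusted p = 3.26e-05). Tat, the first and rate-limiting step, stayed between 3.33 and 3.80 at both stages. Fitted without the filter it was -0.16 ± 0.06 at E14.5 against E12.5 (adjusted p = 0.0452), at a signal where only 1 array, the E12.5 GATA1s female, was above the dim limit. Tdo2, which opens the tryptophan ring, was likewise below the limit on all arrays (highest 3.42). Aldh8a1, a dehydrogenase further down that pathway, rose by 1.16 ± 0.15, 2.23-fold (adjusted p = 2.39e-05), from 3.89 to 4.32 at E12.5 to 4.49 to 6.43 at E14.5, with no overlap.

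Of the methionine, one-carbon and glyoxylate genes 5 of 6 rose. Mat1a, the liver form of the enzyme that makes S-adenosylmethionine, ranged from 3.57 through 3.77 to 4.02 at E12.5 and from 4.77 through 6.01 to 7.19 at E14.5, a rise of 2.24 ± 0.21, 4.73-fold (adjusted p = 1.27e-06), with no overlap and 5 of 8 E12.5 arrays above the dim limit. Bhmt, which remethylates homocysteine with betaine, ranged from 5.14 through 5.44 to 5.75 and from 5.78 through 6.82 to 8.10. The highest E12.5 array, the WT female, and the lowest E14.5 array, the ERG/GATA1s male, were nearly level. Bhmt rose by 1.52 ± 0.16, 2.87-fold (adjusted p = 3.46e-06), on the brightest of its 3 probe sets. A second gave nearly the same difference, while the dimmest, at a mean of 4.48, gave 0.17. The 3 probe sets disagree, and whether the brightest measures Bhmt or a related sequence was not tested. The Bhmt values given for stage, for ERG/GATA1s and for the carriers all rest on that probe set. Aldh1l1, the 10-formyltetrahydrofolate dehydrogenase, rose by 1.21 ± 0.12, 2.31-fold (adjusted p = 2.34e-06), from 4.52 to 4.89 to 5.13 to 6.81 without overlap. Gnmt, the glycine methyltransferase that uses up S-adenosylmethionine, and Agxt, the glyoxylate aminotransferase, rose by 0.48 ± 0.08 and 0.31 ± 0.07 (adjusted p = 0.000274 and 0.00362), each with overlapping stages. Hao1, which oxidises glycolate to glyoxylate, was below the dim limit on all arrays (highest 3.11).

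The sugar and glycogen genes were mixed, with 2 higher, 1 lower and 1 not called. Gys2, the liver glycogen synthase, ranged from 4.60 through 5.54 to 6.25 at E12.5 and from 7.12 through 7.61 to 8.30 at E14.5, a rise of 2.17 ± 0.15, 4.50-fold (adjusted p = 1.06e-07), with no overlap. Fbp1, fructose-1,6-bisphosphatase of gluconeogenesis, was at or below 3.61 on all E12.5 arrays and between 3.27 and 4.64 at E14.5, above the dim limit on 4 of those 8. Its measured means were 3.51 and 3.87, a rise of at least 1.09-fold (adjusted p = 0.0100), and the call was lost without the 3 arrays of opposed sex markers. Khk, ketohexokinase, which phosphorylates fructose, differed by 0.08 ± 0.07 (adjusted p = 0.312). Pck1, the cytosolic carboxykinase that commits carbon to gluconeogenesis, ranged from 4.22 through 4.40 to 4.51 at E12.5 and from 4.01 through 4.12 to 4.43 at E14.5. It fell by 0.21 on the log2 scale (SE 0.07, adjusted p = 0.0227), and lost the call without any of 6 single arrays (the E12.5 WT, E12.5 GATA1s, E14.5 WT and E14.5 ERG/GATA1s females and the E14.5 ERG and E14.5 GATA1s males) and without the 3 arrays of opposed sex markers.

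Among the bile acid synthesis and conjugation genes, 2 of 6 rose. Acox2, the branched-chain oxidase that shortens the bile acid side chain in peroxisomes, ranged from 3.88 through 4.09 to 4.47 at E12.5 and from 5.48 through 6.10 to 7 at E14.5, a rise of 2.05 ± 0.16, 4.13-fold (adjusted p = 2.47e-07), with no overlap. Slc27a5, the bile acyl-CoA synthetase, rose from 3.37 to 3.82 at E12.5 to 3.97 to 5.06 at E14.5 (adjusted p = 1.09e-05), also without overlap. Since 1 of 8 E12.5 arrays was above the dim limit, its fitted difference of 0.93 ± 0.11 is not turned into a fold. The other genes did not pass. Cyp8b1, the sterol 12-alpha-hydroxylase, differed by -0.17 ± 0.09 (adjusted p = 0.124), and Cyp27a1, the sterol 27-hydroxylase, by 0.12 ± 0.08 (adjusted p = 0.212). Baat, which joins bile acids to taurine or glycine, differed by 0.05 ± 0.07 (adjusted p = 0.572). Cyp7a1, the rate-limiting enzyme of the classic pathway, was below the dim limit on 15 arrays and at 3.90 on the E14.5 GATA1s male. Fitted without the filter, Cyp7a1 was 0.22 ± 0.07 higher at E14.5 (adjusted p = 0.0288).

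The pumps that export bile acids and phospholipid into the canaliculus rose with stage, and the carrier that takes bile acids up from blood rose less firmly. Abcb11, the bile salt export pump, was at or below 3.61 on every E12.5 array and between 3.82 and 5.78 at E14.5, so all E12.5 arrays were under the dim limit and all E14.5 arrays above it. Its measured means were 3.40 and 4.72, a rise of at least 1.97-fold (adjusted p = 9.14e-08). Abcb4, the phosphatidylcholine floppase, ranged from 6.63 through 7.69 to 8.14 at E12.5 and from 7.79 through 8.30 to 9.01 at E14.5, a rise of 0.72 ± 0.10, 1.64-fold (adjusted p = 7.43e-05), with overlapping stages. Slc10a1, the sodium-dependent bile acid carrier, was between 3.47 and 3.78 at E12.5 and between 3.22 and 4.82 at E14.5. It passed with a fitted difference of 0.30 ± 0.11 (adjusted p = 0.0309), higher at E14.5 in 5 of 8 pairs of arrays, but 1 of 8 E12.5 and 4 of 8 E14.5 arrays were above the dim limit, so this size rests on values at background. The call was lost without the 3 arrays of opposed sex markers (0.15, adjusted p = 0.287), with the Y-linked level in place of labelled sex (0.16) and with array weights, and also without any of 9 single arrays: both E12.5 ERG arrays, the E12.5 and E14.5 males of WT and of GATA1s, the E12.5 and E14.5 ERG/GATA1s females and the E14.5 ERG male. Slco1b2, an organic anion carrier, was below the dim limit on all arrays (highest 3.24).

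**Figure D2:**
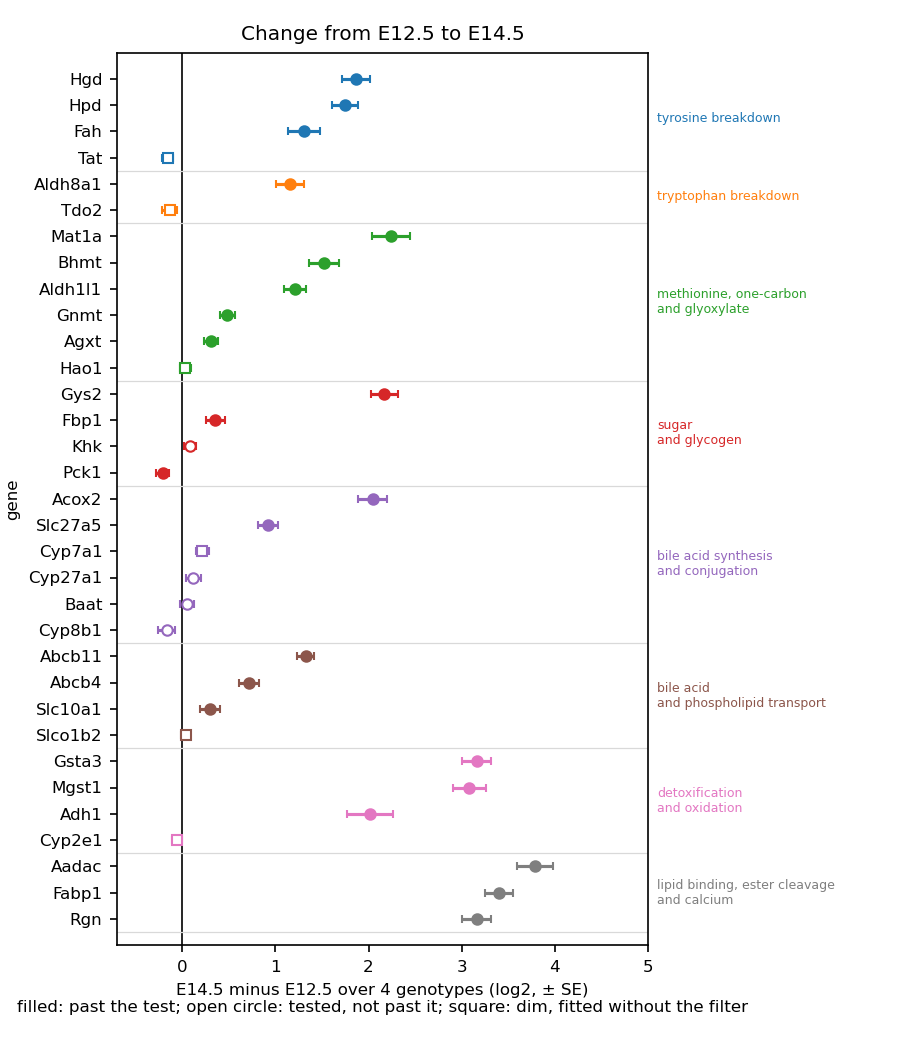
Difference in log2 signal between E14.5 and E12.5 over the 4 genotypes (horizontal axis, ± SE) for the 33 genes by role. Filled circles passed the test, open circles did not, and squares are the 6 dim genes fitted without the filter; Aadac lies highest at 3.79, and the genes of bile acid synthesis spread from Acox2 at 2.05 down to Cyp8b1 at -0.17.

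Other genes of the same pathways, listed by function, rose in nearly all cases for amino acids and in fewer for sugars. Of 17 measured genes of amino acid and one-carbon metabolism 16 rose and 0 fell, led by the dimethylglycine dehydrogenase Dmgdh (1.91 ± 0.11), Kmo (1.87 ± 0.15) of tryptophan breakdown, Aass (1.74 ± 0.11) of lysine breakdown and Gldc (1.73 ± 0.14) of glycine cleavage. Of 9 sugar and glycogen genes 4 rose, the glucose transporter Slc2a2 (1.62 ± 0.13), the glycogen phosphorylase Pygl (1.24 ± 0.09), Gckr (1.11 ± 0.09), which regulates glucokinase, and the branching enzyme Gbe1 (0.44 ± 0.12). All 7 tested bile acid genes rose, with Hsd17b4 (0.94 ± 0.07), Cyp39a1 (0.82 ± 0.09), Amacr (0.69 ± 0.10) and Hsd3b7 (0.57 ± 0.09) first; 10 were on the array. Of 11 tested transporters, from 13 on the array, 6 rose and 2 fell. The canalicular pump Abcc2 rose by 2.38 ± 0.09, the amino acid carriers Slc38a4 and Slc38a3 by 1.75 ± 0.15 and 1.74 ± 0.17, and the basolateral pump Abcc3 by 1.26 ± 0.07, while Slco2b1 and Slc22a7 fell by 0.30 and 0.18. Of 13 tested detoxification genes, from 21 on the array, 11 rose, led by Ugt2b36 (2.25 ± 0.13), Cyp2d26 (2.01 ± 0.26), Fmo1 (1.74 ± 0.14) and Cyp2c70 (1.67 ± 0.16). Ugt2b36 was above the dim limit on 2 of 8 E12.5 arrays, so its size rests in part on values at background. Genes left untested were those that did not pass the dim filter. Cyp3a13, Cyp3a16 and the bile acid gene Akr1d1 passed it through E14.5 arrays alone, which favours a rise in these counts. Slc22a7 passed it through 6 E12.5 arrays alone, which favours a fall, and its size rests on values near the limit. Of 7 fatty acid oxidation genes 4 rose, Acaa2 (1.16 ± 0.12), Acadm (1.14 ± 0.11), Ppara (1.09 ± 0.08) and Ehhadh (1.05 ± 0.10), and Cpt1a fell by 0.44. These lists hold near-identical families of cytochromes and transferases, whose probe sets may share signal.

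The plasma protein genes that fetal hepatocytes make from early on also rose, so the genes were set against them. Each array's mean of 10 such genes was subtracted from its values. That mean was 9.39 ± 0.56 (SD, n = 8) at E12.5 and 11.16 ± 0.28 (SD, n = 8) at E14.5, a scale on which 98.7% of units are lower and 0.443% higher at E14.5. On it 7 genes were higher and 15 lower: Aadac (2.02), Fabp1 (1.63), Rgn (1.39), Gsta3 (1.39), Mgst1 (1.31), Mat1a (0.47) and Gys2 (0.40) rose more than the plasma protein genes. The Mat1a and Gys2 calls, and that of Abcb11 as lower, were lost without the 3 arrays of opposed sex markers. That of Mat1a was also lost with the Y-linked level in place of labelled sex. The subtracted mean is common to all genes on an array, the moderated fit gave all 27 tested genes the same SE of 0.15, and its p-values are too small to be read. With each gene's own spread, an analysis added after the data were seen, 8 were higher, Acox2 (0.28 ± 0.10) added, and 15 lower. Against 7 transcription factor and keratin genes of the parenchyma instead, 15 were higher and 9 lower. The median change over all units was -0.89 on this second scale, against -1.80 on the first. The share of units called is given for the first scale only. Fah, Abcb11 and Aldh1l1 passed as lower on the first scale and as higher on the second. Slc27a5 (0.067) and Aldh8a1 (0.30) also turned positive but did not pass on the second, and Hpd (-0.02 to 0.89) and Bhmt (-0.25 to 0.66) changed sign without having passed on the first. The first 5 genes were higher on both scales, at 2.22 to 2.93 against the second reference.

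**Figure D3:**
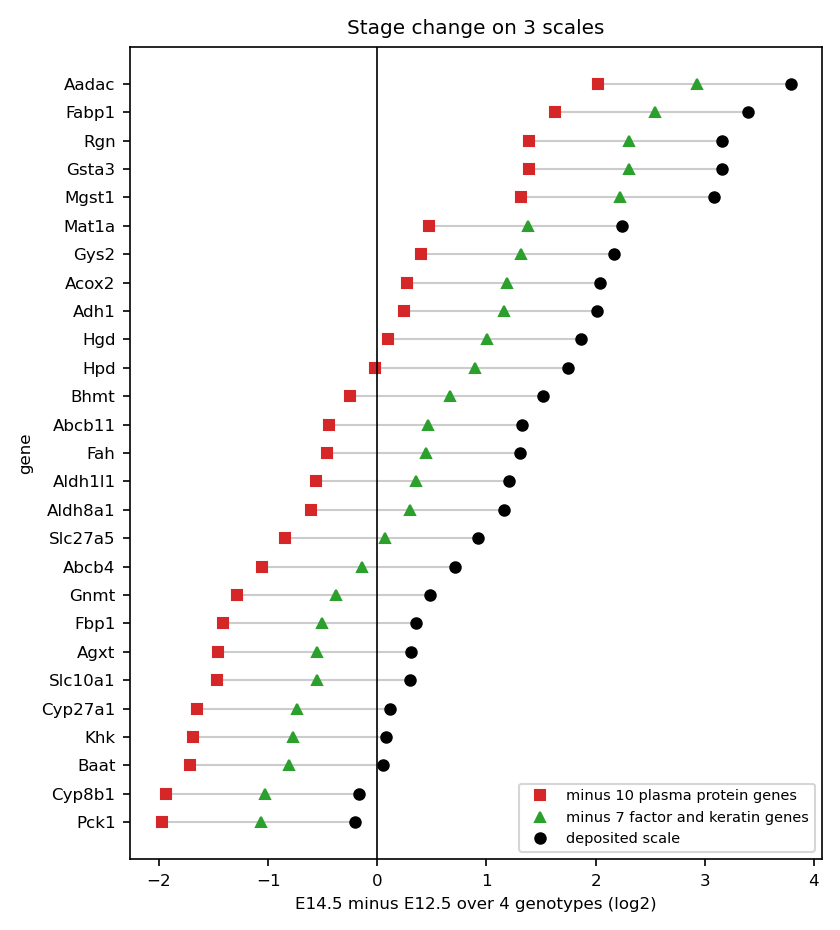
Stage difference (log2, E14.5 minus E12.5) of the 27 tested genes on the deposited scale (black circles), after subtracting the mean of 10 plasma protein genes (red squares) and after subtracting 7 transcription factor and keratin genes (green triangles); errors are not drawn. Aadac, Fabp1, Rgn, Gsta3 and Mgst1 stay above 1 on all 3 scales, and Pck1 and Cyp8b1 lie below 0 on all 3.

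Within single genotypes, 2 arrays against 2, the count of raised genes was highest in the GATA1s livers. With stage 15 of the 33 genes rose in WT (11.4% of units) and 13 in ERG livers (12.7%). The count was 21 for the GATA1s livers (13.8% of units) and 16 for ERG/GATA1s (14%). Aadac rose by 2.71 ± 0.38 in WT and by 2.79 ± 0.38 with ERG, against 5.13 ± 0.38 (35.0-fold, adjusted p = 1.40e-06) for GATA1s and 4.52 ± 0.38 for both alleles. Fabp1 rose by 2.86 ± 0.30, 2.75 ± 0.30, 4.57 ± 0.30 and 3.42 ± 0.30 in the same order. Gnmt, Slc10a1, Fbp1, Agxt and Aldh8a1 passed in GATA1s, and in none of the other 3 genotypes. Their differences between genotypes were tested only through the carriers below. Fitted on the compared groups alone, 0 genes rose in WT and 0 in ERG, but 22 did with GATA1s and 18 with both alleles. Without the arrays of opposed sex markers ERG/GATA1s has 1 array per stage, so no count is given for it. Leaving out the E12.5 WT male left 8 in WT, leaving out the E12.5 ERG male 6 in ERG, and leaving out the E14.5 ERG/GATA1s female 9 in ERG/GATA1s.

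**Figure D4:**
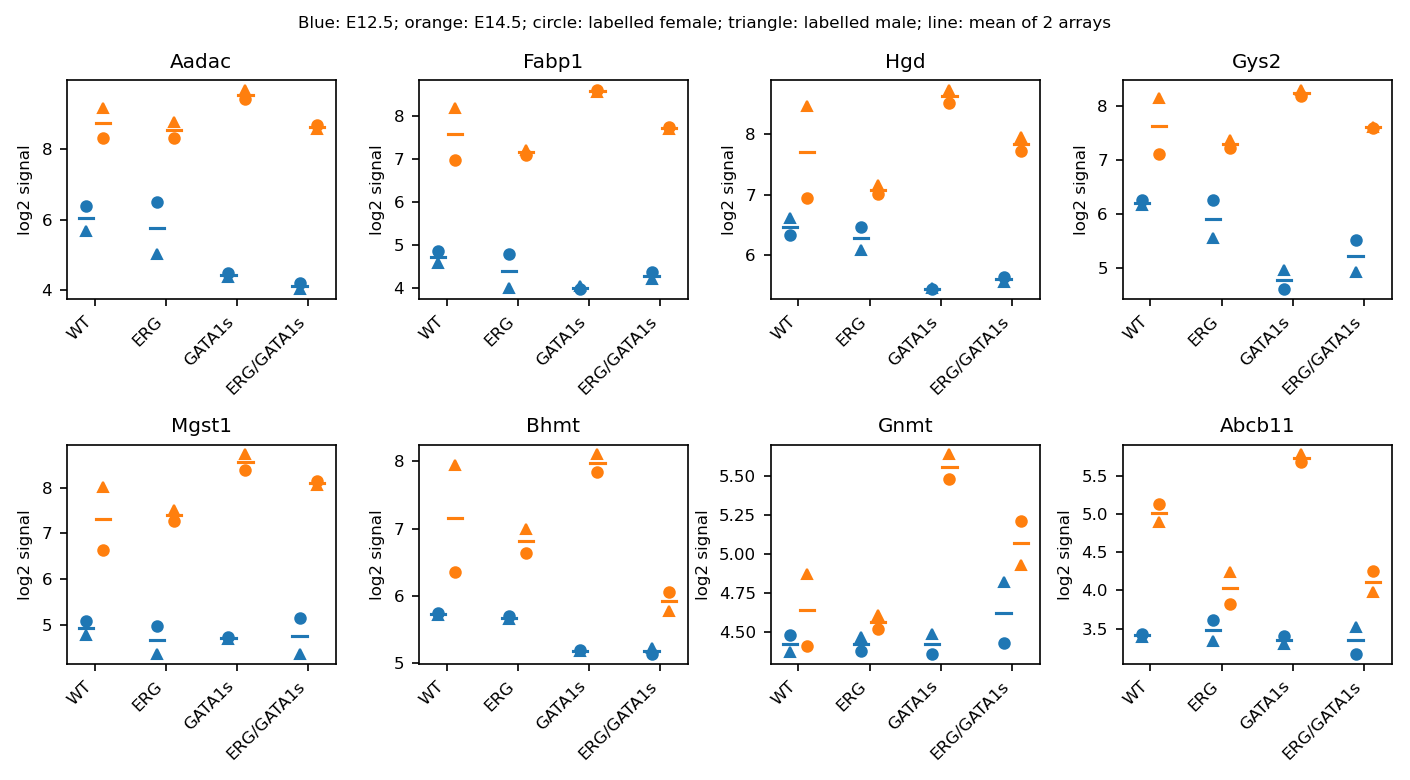
Log2 signal of 8 genes in each group, with E12.5 in blue, E14.5 in orange, circles for samples labelled female, triangles for samples labelled male and a line at the mean of the 2 arrays; each panel has its own axis. Aadac, Hgd, Gys2 and Bhmt show the GATA1s and ERG/GATA1s arrays of E12.5 below the others, and Abcb11 shows the ERG and ERG/GATA1s arrays of E14.5 below the WT and GATA1s arrays.

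Against WT at each stage, also 2 arrays against 2, few of the genes passed. At E12.5 none passed in ERG, where 0% of units were higher and 0% lower with limma, 666 units and 0 of the 33 genes having an unadjusted p under 0.05. In E12.5 GATA1s livers 1 gene fell, Gys2, from 6.25 and 6.16 to 4.60 and 4.96 (0.511% of units), a difference of -1.43 ± 0.30 (adjusted p = 0.0359) that was lost under 5 of the other settings and without any of 8 single arrays: those of E12.5 WT, E12.5 GATA1s, E14.5 ERG and E14.5 ERG/GATA1s. In E12.5 ERG/GATA1s livers 0 of the 33 genes passed by limma, with 5 at an unadjusted p under 0.05, and 0.00615% of units were lower. Fitted on those groups alone, 4 passed.

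At E14.5 the export pump gene Abcb11 was lower than in WT with the ERG transgene, alone or with GATA1s. WT arrays read 5.13 and 4.89 and ERG arrays 3.82 and 4.24, while GATA1s arrays read 5.68 and 5.78 and ERG/GATA1s arrays 4.25 and 3.98. All 4 arrays with the ERG transgene thus lay below the 4 without it. The share of all units with this order was not computed, and the 4 were not tested as a group. Abcb11 fell by 0.98 in ERG (SE 0.18, adjusted p = 0.0111), the 1 gene lower there (0.504% of units), and by 0.90 in ERG/GATA1s (SE 0.18, adjusted p = 0.00611). Bhmt was the other gene lower in ERG/GATA1s, at 6.06 and 5.78 against 6.36 and 7.95 in WT (-1.24 ± 0.31, adjusted p = 0.0241), 2 genes in all (4.69% of units). The Abcb11 call in ERG was lost without the WT or the ERG female, that in ERG/GATA1s without the WT female or the ERG/GATA1s male, and the Bhmt call without the WT or the ERG/GATA1s male. All 3 were lost on the compared groups alone, and both ERG/GATA1s calls also without the arrays of opposed sex markers. In GATA1s livers 2 genes rose (0.757% of units), Gnmt, at 5.48 and 5.64 against 4.41 and 4.87 (0.92 ± 0.17, adjusted p = 0.0156), and Fbp1, at 4.39 and 4.64 against 3.27 and 3.83 (adjusted p = 0.0381). Only the male of the WT pair was above the dim limit for Fbp1, so no size is given, and its call was lost without the filter. Those counts turned on the WT pair: 18 genes rose without the E14.5 WT male, and 0 without the E14.5 WT female or either GATA1s array. At E14.5 both GATA1s arrays lay above the other 6 in 22 of the 33 genes (66.7%), against 5% of units, and the WT female was the lowest array in 18 (54.5%), against 25%.

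Pooling GATA1s with ERG/GATA1s gave 4 carriers against 4 non-carriers at each stage. At E12.5 the carriers were lower in 3 genes (3.48% of units). Aadac read 6.39, 5.69, 6.51 and 5.02 in the non-carriers and 4.48, 4.38, 4.21 and 4.02 in the carriers, a difference of -1.63 ± 0.27 (3.10-fold lower, adjusted p = 0.00392). Gys2 read 6.25, 6.16, 6.25 and 5.55 against 4.60, 4.96, 5.52 and 4.93 (-1.05 ± 0.21, adjusted p = 0.0106). Hgd read 6.33, 6.61, 6.47 and 6.09 against 5.44, 5.46, 5.65 and 5.56 (-0.85 ± 0.21, adjusted p = 0.0315). In these genes and in Bhmt the carriers lay below the non-carriers on every array, 4 of the 33 genes in all, as 3.82% of units did. The median over the 33 genes was -0.02 without the filter, against 0.02 for all genes. Liver parenchyma markers moved along: 14 of 18 were lower in carriers (median -0.83), with Apob (-1.28 ± 0.17), Ahsg (-1.21 ± 0.27), Fgb (-1.19 ± 0.16) and Rbp4 (-1.08 ± 0.16) first. The mean over the parenchyma markers was 8.39 to 8.72 in non-carriers and 7.72 to 7.93 in carriers, and that over 4 megakaryocyte markers 8.27 to 8.86 and 9.28 to 9.82; their part in the result was not tested. Among other genes of the pathways Aass, Gldc, Abcc2 and Slc38a4 also fell (-0.69, -0.87, -0.59 and -0.96). Both carrier males of E12.5 had opposed sex markers, and without the arrays of opposed sex markers 0 of the 33 genes and 0 units passed. The Aadac call held without any single array. Gys2 was lost without the ERG female, the GATA1s female or the ERG/GATA1s male, and Hgd without any of these or of the WT male, the WT female or the GATA1s male.

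At E14.5 the direction was the other way: 8 of the 33 genes were higher in carriers and 0 lower (5.87% of units higher). Mgst1 read 6.63, 8.01, 7.28 and 7.51 in the non-carriers and 8.38, 8.73, 8.15 and 8.05 in the carriers, a difference of 0.97 ± 0.25 (1.96-fold, adjusted p = 0.0223), with no overlap. Gnmt read 4.41, 4.87, 4.52 and 4.61 against 5.48, 5.64, 5.21 and 4.93 (0.71 ± 0.12, adjusted p = 0.00161), also with no overlap. Hgd read 6.95, 8.46, 7.01 and 7.16 against 8.52, 8.73, 7.72 and 7.96 (0.84 ± 0.21, adjusted p = 0.0201), where the WT male reached into the carrier range. Fabp1 (0.78 ± 0.21), Gsta3 (0.76 ± 0.22), Aldh1l1 (0.72 ± 0.17), Abcb11 (0.40 ± 0.13) and Fbp1 completed the 8, with adjusted p-values between 0.00848 and 0.0492 and overlapping groups. The Abcb11 difference lay mostly between GATA1s and WT, with group means of 5.73 and 5.01. In ERG/GATA1s and ERG they were 4.115 and 4.03. Fbp1 read 3.27, 3.83, 3.44 and 3.57 in the non-carriers, of which 1 was above the dim limit, and 4.39, 4.64, 4.21 and 3.58 in the carriers, and no size is given for it. All 4 carriers lay above all 4 non-carriers in 3 of the 33 genes, Mgst1, Gnmt and Cyp27a1, as in 5.86% of units. The median over the 33 genes was 0.40 without the filter, against 0.0025 for all genes. Of the parenchyma markers 2 of 18 rose, Apoa2 (0.84 ± 0.18) and Prox1 (0.66 ± 0.15), and their mean spanned 9.05 to 9.83 in non-carriers and 9.48 to 9.95 in carriers. Megakaryocyte markers were higher in carriers in 4 of 4 (median 1.43; mean 7.51 to 8.33 in non-carriers and 9.08 to 9.66 in carriers), granulocyte markers higher in 6 of 6 and erythroid markers lower in 5 of 6; their part in the result was not tested. The Y-linked level spanned 3.03 to 6.18 in non-carriers (mean 4.38) and 3.06 to 6.50 in carriers (mean 5.55), and with it in place of labelled sex 3 genes passed. At E12.5 its means were 4.44 and 3.80, so it differed between carriers and non-carriers in opposite directions at the 2 stages. Without the E14.5 WT male 16 genes passed, without the E14.5 ERG female or the E14.5 ERG/GATA1s female 2, and without the arrays of opposed sex markers 2, Gnmt and Fbp1. The Gnmt and Fbp1 calls also held without each single array. The Aldh1l1 call was lost without the ERG or the ERG/GATA1s female of E14.5. The Hgd call was lost without either of these, the ERG male, the GATA1s female or the ERG/GATA1s male. That of Mgst1 was lost without either ERG array, either ERG/GATA1s array, the WT female or the GATA1s male, its difference then lying between 0.58 and 1.03. Fabp1 was lost without any E14.5 array other than the WT male, and Gsta3 without any of 7, those of GATA1s at both stages, of E14.5 ERG and the E14.5 ERG/GATA1s female. Abcb11 was lost without any of 13, all but the E12.5 ERG/GATA1s arrays and the E14.5 ERG male.

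**Figure D5:**
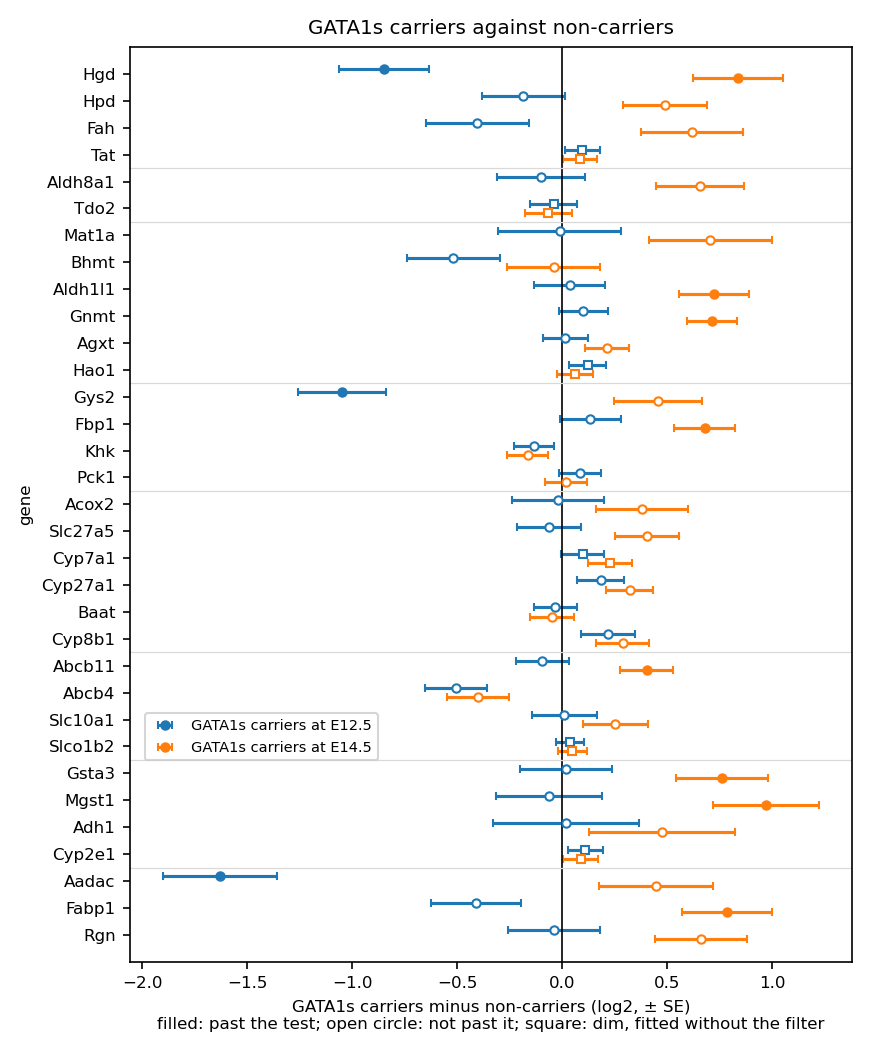
Difference in log2 signal between GATA1s carriers and non-carriers (horizontal axis, ± SE, 4 arrays against 4) for the 33 genes at E12.5 (blue) and E14.5 (orange), filled where the test was passed, with squares for the 6 dim genes. The E12.5 calls, Aadac, Gys2 and Hgd, lie left of 0, and the 8 calls of E14.5 lie right of it.

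The difference between those carrier effects was tested directly. It was positive and passed in 3 of the 33 genes (1.6% of units), Aadac (2.08 ± 0.38, adjusted p = 0.0133), Hgd (1.69 ± 0.30, adjusted p = 0.0115) and Gys2 (1.51 ± 0.30, adjusted p = 0.0194). Hgd thus passed in opposite directions at the 2 stages, though each call was lost without single arrays, while Aadac and Gys2 passed in the carriers at E12.5 and were 0.45 and 0.46 higher, not past the test, at E14.5. Of the parenchyma markers 13 of 18 passed the same test, all positive, with a median of 1.13 over the 18, and included Afp (0.99 ± 0.13) and Hnf4a (1.14 ± 0.21). The Gys2 call was lost without the E12.5 WT, E12.5 GATA1s or E14.5 ERG female or the E12.5 ERG/GATA1s male. Without the E14.5 WT male 14 genes passed, and 0 passed with the Y-linked level in place of labelled sex or without the arrays of opposed sex markers. The mean of the 22 raised genes was also set against the plasma protein genes of the same array. These 22 were chosen by the stage test on the same arrays. At E12.5 the difference was -4.88 to -5.36 in the non-carriers and -4.29 to -4.49 in the carriers, without overlap. The 22 genes themselves were lower in those carriers, at a mean of 4.49 to 4.56 against 4.62 to 4.87. The plasma protein mean was lower too, at 8.8 to 9.06 against 9.5 to 10.17, which by itself raises the difference. The share of all units with such a gap was not computed. At E14.5 the difference was -4.62 to -5.05 in the non-carriers and -4.34 to -5.00 in the carriers, which overlapped.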

How the data were processed

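Fetal liver RNA from 16 samples was measured on Affymetrix whole-transcript arrays, per the labels' protocols. Per the submitters' processing notes the authors used RMA (version not given), and the deposited log2 values are its summary of each probe set; background correction could not be varied. Of 28270 probe sets, 21780 had 1 gene symbol, 1617 several and 4873 none. The fit used limma 3.58.1 (R 4.3.3), with 8 group means and labelled sex (7 residual degrees of freedom), eBayes and Benjamini-Hochberg adjustment over 16258 units at 0.05, two-sided. Members were never compared with each other in level, since probe sets differ. The fit was tested on simulated data. The result of 1 motif search is not reported here.

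The genes, role groups, pathway and marker lists were chosen with earlier results of these data known. All 33 genes are described; array values are given for those past a test, and up to 4 called genes of each other list, largest first. Alternatives varied the dim filter, normalization, centring, sex term, arrays fitted, array weights, eBayes, probe sets, reference genes and each single array. The per-gene spread without moderation was added after seeing the data.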

Additional observations from a re-analysis of the deposited data

Results flagged for a closer look

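In 3 genes the effect of carrying GATA1s differed between E14.5 and E12.5 by a test of the difference itself. For Aadac the carrier effect was 2.08 higher at E14.5 on the log2 scale. For Hgd, the homogentisate dioxygenase, it was 1.69 higher, and for the glycogen synthase gene Gys2 1.51 higher. Of 18 liver parenchyma markers 13 passed the same test in the same direction. For the 3 genes the call was lost with the Y-linked level in place of labelled sex and without the 3 arrays of opposed sex markers.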

How the results depend on the processing

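Of 3491 single-gene values recomputed under the alternatives, 3207 kept direction and call, 279 kept direction and lost the call, and 5 turned; the cause was not tested unless named. The count of genes higher with stage, 22, lay between 19 (a stricter dim filter, with fewer genes tested) and 23 (no filter). The count of genes lower with stage, 1, became 2 without the dim filter, and 0 with a stricter filter, further quantile normalization or without the 3 arrays of opposed sex markers. On the compared groups alone, which leaves fewer arrays to estimate the spread, 0 genes rose with stage in WT and 0 in ERG. The 16 of ERG/GATA1s became 9 with array weights. No count is given without the opposed arrays, which left 1 array per stage. For GATA1s against WT at E12.5, the 1 lower gene became 2 with a stricter filter or quantile normalization, 3 with array weights, and 0 with no filter, centred arrays, the compared groups alone, all probe sets or without the opposed arrays. For ERG/GATA1s at E12.5, 4 passed on the compared groups alone. At E14.5 the compared groups alone gave 0 lower in ERG, 0 higher in GATA1s and 0 lower in ERG/GATA1s, the last also 0 without the opposed arrays. The 2 higher in GATA1s became 1 with no filter, a stricter filter, centred arrays, array weights or all probe sets, and 4 with trend and robust eBayes. For carriers at E12.5, the 3 lower became 5 on that stage alone and 0 without the opposed arrays. At E14.5 the 8 higher became 5 without the filter, 5 on that stage alone, 3 with the Y-linked level and 2 without the opposed arrays. The 3 with a different carrier effect became 5 with quantile normalization, 0 with the Y-linked level and 0 without the opposed arrays. Relative to reference genes, the 7 higher and 15 lower became 15 and 9 with the factor and keratin reference, and 9 lower under a stricter filter, with fewer genes tested. With that reference, of the 15 lower, Fah (0.45), Abcb11 (0.47), Slc27a5 (0.067), Aldh1l1 (0.35) and Aldh8a1 (0.30) turned positive.

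Leaving out each array in turn gave 0 to 2 genes lower with stage; 8 to 17 higher in WT, 6 to 16 in ERG and 9 to 18 in ERG/GATA1s. Against WT it gave 0 to 3 for GATA1s and 0 to 4 for ERG/GATA1s at E12.5, and 0 to 3 for ERG, 0 to 18 for GATA1s and 0 to 3 for ERG/GATA1s at E14.5. For carriers it gave 1 to 4 at E12.5 and 2 to 16 at E14.5, and 2 to 14 for the difference. No paired analysis was possible because the labels carry no replicate numbers that tie samples together. Signals under the dim limit, as for 6 of the 33 genes, cannot show an order.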
